A study of Arabidopsis thaliana with 4 samples.

Results

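The genes described here are a list of 10 Arabidopsis thaliana genes of the acidic ribosomal stalk proteins P0, P1 and P2. They were chosen by locus tag from 27444 nuclear protein-coding genes. Of these, 3 encode P0 (AT2G40010, AT3G09200 and AT3G11250), 3 encode P1 (AT1G01100, AT4G00810 and AT5G47700) and 4 encode P2 (AT2G27710, AT2G27720, AT3G28500 and AT3G44590). The gene table gives no symbol for any of the 10, and the classes are those known for the family. The list need not be the whole family: P0-like, P1-like and P2-like genes outside it are described with the related genes below. The question was at which of them TRB1, a Myb-type protein known for binding telomeric repeats, was found in 4 deposited peak lists.

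The stalk is a mobile arm on the large ribosomal subunit. P0 sits at its base, where it is attached to the ribosomal RNA, and carries pairs of the small acidic proteins P1 and P2, whose flexible tails recruit the GTPases of translation, such as the elongation factor eEF2. Plants also have a P3 protein in the stalk, and each class is encoded by several genes.

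The chromatin came from whole seedlings aged 14 days, fixed with 1% formaldehyde, so the peaks are not assigned to a cell type. Each of 4 groups was represented by 1 library. The first was from plants homozygous for TRB1pro:TRB1-GFP, in which the TRB1 promoter drives a fusion of TRB1 to green fluorescent protein, captured on the GFP-Trap A matrix, and the second was its control, wild type (Wt) chromatin on the same matrix. The third was Wt chromatin with an anti-TRB1 antibody, and the fourth its control, Wt chromatin without the antibody. The labels do not say whether the fusion line kept its own TRB1 gene. The replicate 1 list held 3975 peaks, the replicate 2 list 7480, the PePr list 24219 and the genomic list 4995. No source used here says which approach gave which replicate list. The depth of the libraries is unknown, the signal of the controls was not analysed here, and nothing could be tested over samples with 1 library in each group. The genomic list holds what the other 3 lists share, so it adds no independent count.

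Of the 10 stalk genes, 8 had a peak in all 4 lists, counting any peak that came within 500 bp of a gene end, outside or inside the gene. The replicate 1 list had a peak at 9 of the 10, against 24.6% of all nuclear protein-coding genes. The replicate 2 list also had one at 9 of the 10, against 41.4% of all genes. Both replicate lists together had one at 8 of the 10, against 22.3% of all genes, and the genomic list at the same 8 genes, against 19.6%. All 10 had a peak in the PePr list, but so did 68.7% of all genes. The exact (Clopper-Pearson) 95% interval around the 8 of 10 in the genomic list ran from 44.4% to 97.5%. The interval treats the 10 genes as separate draws, although they are a chosen list and AT2G27710 and AT2G27720 share peaks. It covers counting error only, and the difference from other genes was not tested.

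**Figure D1:**
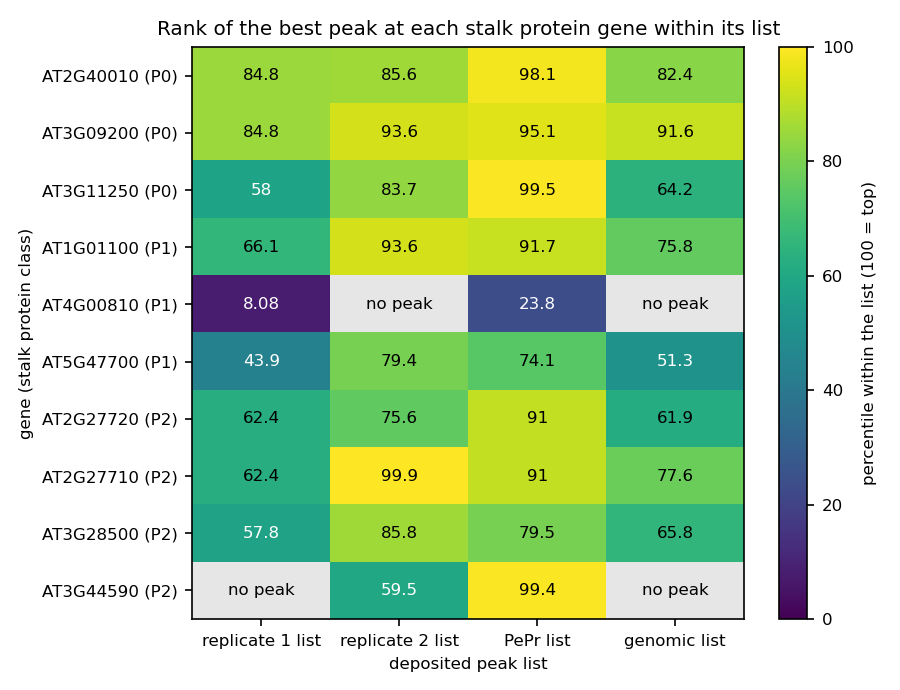
Percentile of the best peak at each of the 10 stalk genes (rows, with the protein class) within each of the 4 lists (columns), where 100 is the top of the list by deposited score, by PePr p-value or, for the genomic list, by the mean rank of both replicate peaks. Grey cells have no peak: AT4G00810 lacked one in the replicate 2 list, AT3G44590 in the replicate 1 list, and both in the genomic list. Peaks tied at a score of 3100 share 1 percentile, 84.8 in the replicate 1 list and 93.6 in the replicate 2 list.

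The P0 genes had a peak in each of the 4 lists at all 3 loci. At AT2G40010 the genomic list interval lay on chromosome 2 at 16710321 to 16711170, and its centre was 26 bp inside the higher-coordinate end of the gene. The interval also overlapped the neighbour AT2G40020, with its centre 184 bp from the end of that gene, and the peaks of the other lists reached this neighbour too. The peak score, taken from the authors' lists and without a stated scale, was 3100 in the replicate 1 list and 2749 in the replicate 2 list, and the authors' PePr p-value was 3.4e-29. These values placed the peak at percentile 84.8 of the replicate 1 list, 85.6 of the replicate 2 list and 98.1 of the PePr list. The replicate 1 and replicate 2 peaks (chromosome 2, 16709921 to 16711533 and 16709951 to 16711466) had centres 18.5 bp apart.

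At AT3G09200 the genomic list interval lay on chromosome 3 at 2824551 to 2825400. The score was 3100 in both replicate lists, a value that many peaks share (28.3% of replicate 1 peaks and 11.7% of replicate 2 peaks), and the PePr p-value was 7.9e-23. This was the P0 gene whose peak was hardest to assign. AT3G09200 overlapped its neighbour PTAC13 (AT3G09210) in the gene table. The centre of the interval was 266 bp inside the end of the P0 gene, and 166 bp outside that of PTAC13. The interval covered 691 bp of the P0 gene. Assigning every peak to 1 gene, that of the closest end, left AT3G09200 without a peak in all 4 lists.

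AT3G11250 had several intervals. The main one in the genomic list lay on chromosome 3 at 3521041 to 3521720, with its centre 52 bp inside the gene, and its PePr p-value of 2.1e-40 was the lowest at any stalk gene (percentile 99.5). A narrower interval of 275 bp (3520596 to 3520870) lay outside AT3G11250 and inside the neighbour ATE2 (AT3G11240), an arginyl-tRNA protein transferase. Another of only 50 bp (3522061 to 3522110) lay deep inside AT3G11250. The main interval also overlapped ATE2, with its centre 192 bp from the end of that gene. Each of the replicate lists had a single peak across these intervals, scoring 2171 in replicate 1 and 2448 in replicate 2, with centres 15 bp apart. A further PePr peak lay beyond the opposite end of the gene (3523251 to 3523930, p-value 2.9e-08) and was in neither replicate list.

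The P1 genes differed from each other. AT1G01100 had a genomic list interval on chromosome 1 at 50831 to 51510, centred 40 bp inside its higher-coordinate end, with a PePr p-value of 1.6e-19. Its score was 2714 in the replicate 1 list and 3100 in the replicate 2 list. The replicate 1 peak was 3180 bp wide (48907 to 52086) and covered the whole gene, whereas the replicate 2 peak was 1539 bp wide (50423 to 51961) and covered 60.5%, so that the centres were 695.5 bp apart. The wide replicate 1 peak also reached the ends of PDH-E1 ALPHA (AT1G01090), a subunit of pyruvate dehydrogenase, and of IQD18 (AT1G01110). Of the 3 PePr peaks near AT1G01100, the weaker ones at its other end (p-values 6.5e-09 and 9.0e-07) had no counterpart in the replicate 2 list.

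AT5G47700 had a peak in all 4 lists, but centred outside the gene. The genomic list interval (chromosome 5, 19328491 to 19329680) was the widest at a stalk gene, at 1190 bp, and its centre was 100 bp beyond the gene end. The scores were 1548 in the replicate 1 list and 1977 in the replicate 2 list, and the PePr p-value was 1.6e-12. The centres of the replicate 1 and replicate 2 peaks were 298 and 340 bp beyond the gene end and closer to the neighbour AT5G47710 (260 and 218 bp from its end), so both replicate peaks went to that neighbour when peaks were assigned to the closest end. The genomic and PePr intervals described here stayed with AT5G47700 in that assignment. Both replicate peaks also spanned a further genomic and PePr interval inside AT5G47710, so their scores are not those of AT5G47700 alone. The PePr percentile was 88.2 for that further interval and 74.1 for the interval at AT5G47700.

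AT4G00810 was the P1 gene without a genomic list peak. The replicate 1 list had a peak there (chromosome 4, 345982 to 348078) that covered 94.9% of the gene, with a score of 769.6, at percentile 8.08 of that list. The replicate 2 list had none, and its nearest peak lay 4066 bp from an end of the gene. The PePr list had an interval of 510 bp (347141 to 347650) with a p-value of 6.1e-07, at percentile 23.8. AT4G00810 thus had the lowest rank of the stalk genes in every list that held it.

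The P2 genes included a pair of neighbours. AT2G27710 and AT2G27720 lie side by side on chromosome 2, with 257 bp between them. The replicate 1 list had 1 peak of 3411 bp over both genes (11815978 to 11819388, score 2451). The replicate 2 list had 2 peaks in that stretch, one at AT2G27710 (11815994 to 11817583, score 3200.1, percentile 99.9) and one that covered 81.1% of AT2G27720 and reached the end of AT2G27710 (11817747 to 11819378, score 1628, percentile 75.6). The genomic list had 2 intervals of 850 bp each. The interval at AT2G27710 (11816361 to 11817210) was centred 152 bp inside its lower-coordinate end, and the other (11818231 to 11819080) was centred 426 bp inside AT2G27720 and reached AT2G27710 as well. Their PePr p-values were 4.3e-14 and 5.5e-19. In the replicate 2 score the interval of AT2G27710 ranked higher, and in the PePr p-value that of AT2G27720. Because the genes share peaks they are not separate counts: taken as 1 locus, 7 of 9 loci had a genomic list peak, against 19.6% of all genes.

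AT3G28500 stood apart from other genes and had a peak in all 4 lists. Its nearest neighbours were 1333 and 2490 bp away, the genomic list interval (chromosome 3, 10681781 to 10682460) was centred 92 bp inside the gene, and no peak at this gene reached an end of another protein-coding gene. The scores were 2161 in the replicate 1 list and 2772 in the replicate 2 list, the PePr p-value was 7.7e-14, and the centres of the replicate peaks were 21.5 bp apart. Both replicate peaks covered the whole gene, which at 951 bp is the shortest of the 10.

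AT3G44590 was the P2 gene without a genomic list peak. The replicate 2 list had a peak there (chromosome 3, 16163016 to 16164484) with a score of 819, at percentile 59.5 of the list. The PePr list had an interval of 1020 bp (16163091 to 16164110) whose p-value of 1.1e-37 placed it at percentile 99.4, the second lowest p-value at a stalk gene after AT3G11250. The replicate 1 list had no peak within 27088 bp of an end of the gene. AT3G44590 was therefore near the top of the PePr list and missing from the replicate 1 list, while AT4G00810 was low in both the PePr and replicate 1 lists and missing from the replicate 2 list.

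**Figure D2:**
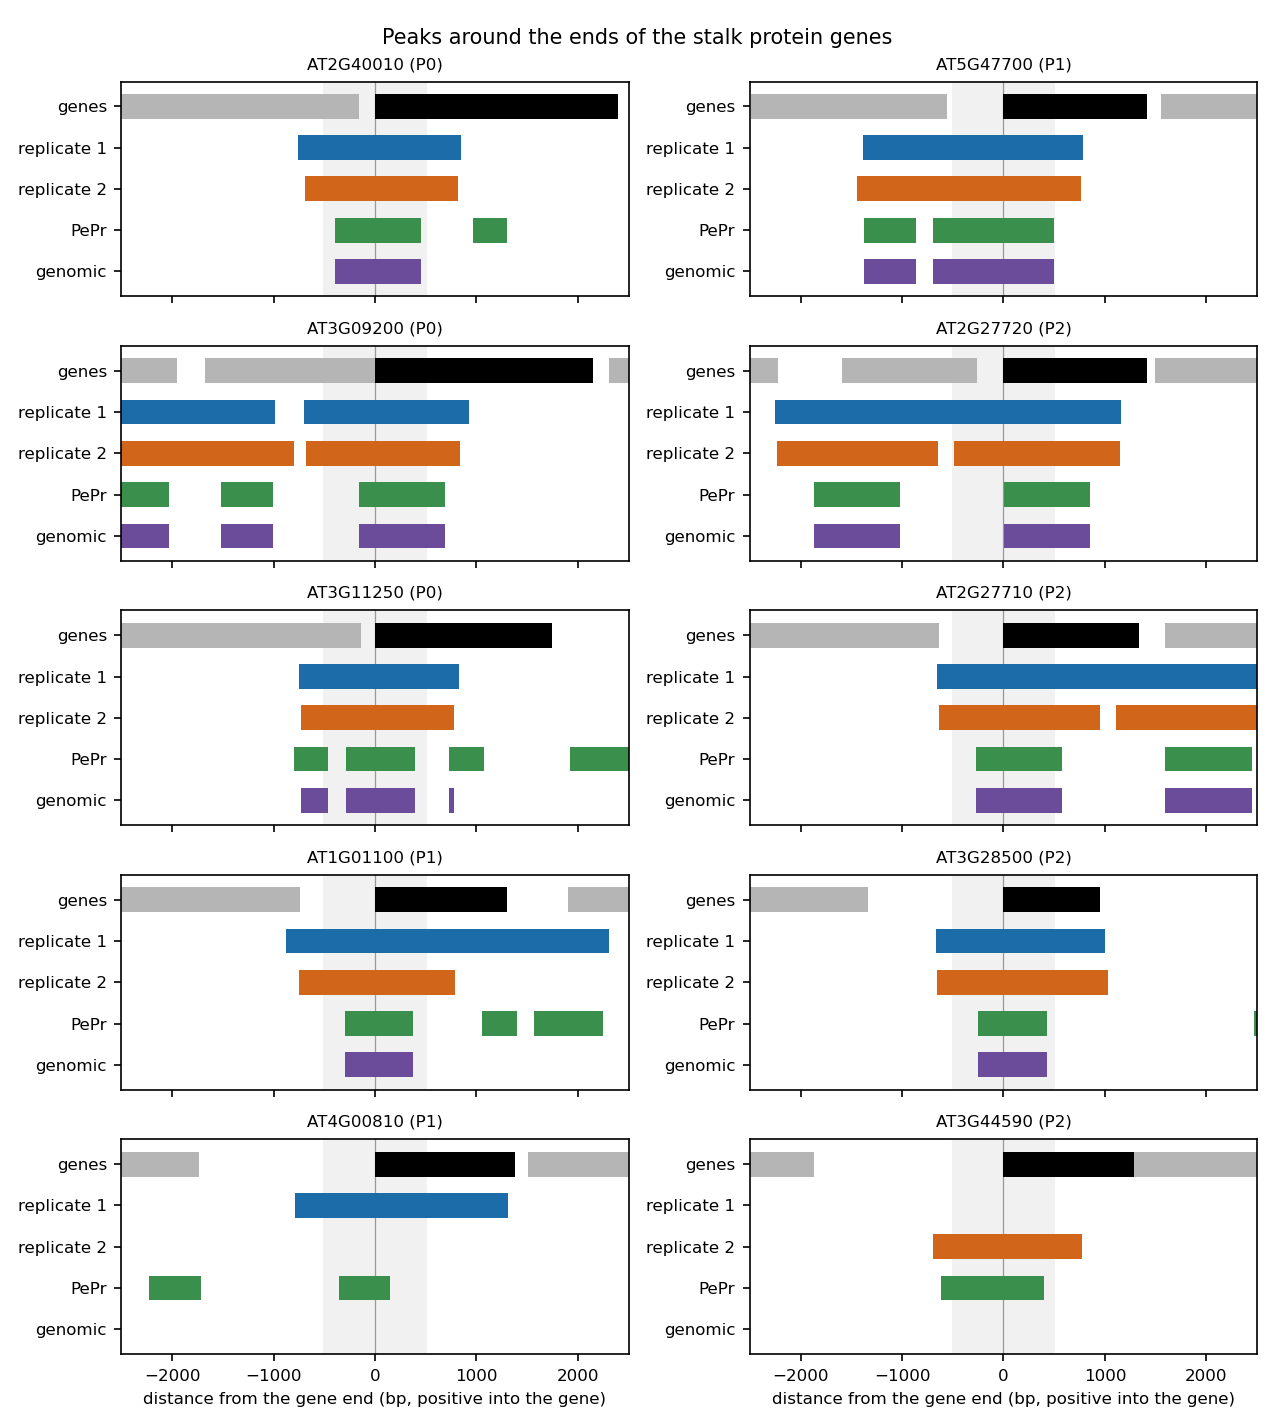
Peaks of the 4 lists (coloured bars) around each stalk gene (black bar) and its protein-coding neighbours (grey bars, hidden where they overlap the black bar), as distance in bp from the gene end nearest to a PePr peak centre, positive into the gene. The shaded band is the 500 bp on either side of that end; replicate 1 has 1 wide peak over the neighbours AT2G27710 and AT2G27720 where replicate 2 has 2.

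The choice of 500 bp decided none of these states. The closest peak in each list that had one began at most 1 bp from a gene end or lay across it, and windows of 200 bp or 1000 bp gave the same counts of stalk genes. With 200 bp, the replicate 1 list reached 22.9% of all genes, replicate 2 reached 38.6%, PePr 60.8% and the genomic list 17.7%. With 1000 bp, these shares were 27.6%, 46.0%, 75.6% and 22.7%. Where a stalk gene lacked a peak, the nearest one was far from its ends, from 4066 bp at AT4G00810 in the replicate 2 list to 47539 bp at AT3G44590 in the genomic list.

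The peaks lay close to the gene ends and mostly centred on the gene side. In the genomic list the median distance from the centre of the closest peak to a gene end was 95.5 bp for the 8 stalk genes with a peak, with a range from 26 to 426 bp, and 244.5 bp for all 5392 genes with a peak. The centre lay inside the gene at 7 of the 8, with AT5G47700 the exception, and inside the gene at 42.4% of all genes with a peak. In the replicate 2 list the median distance was 78.0 bp at stalk genes and 347.2 bp at all genes with a peak, and 8 of 9 centres lay inside the gene, against 41.3%. In the replicate 1 list these values were 263.0 bp, 448.2 bp, 7 of 9 and 32.6%. In the PePr list they were 101.0 bp, 184.5 bp, 7 of 10 and 45.4%. The values for all genes include genes reached only by a peak centred at a neighbour. Stalk genes were also mostly shorter (median 1400 bp against 2078 bp), and the part of gene length in these values was not tested. Gene strand was not used, so a gene end may be the start or the end of transcription, and none of these differences was tested.

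Most stalk genes were shorter than the median gene and lay close to a neighbour. Their median length was 1400.0 bp, from 951 to 2394 bp, against 2078.0 bp for all protein-coding genes. The median of the smaller gap to a neighbouring gene was 137.0 bp, against 190.0 bp for all genes. Of the 9 genomic list intervals at stalk gene ends, 8 also reached the end of another protein-coding gene. In 2 of the 9 the centre was nearer to that gene than to the stalk gene. Shares over all intervals of the list were not computed, so neither count is a trait of stalk genes. The part of gene packing in the counts was not tested, but the counts were also taken with every peak assigned to the closest gene end alone. In that assignment 7 of the 10 stalk genes had a genomic list peak, against 13.5% of all genes, and 6 had a replicate 1 peak, also against 13.5%. The replicate 2 list had a peak at 7, against 25.1%, and the PePr list at 9, against 53.9%.

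Scores at stalk genes were above the middle of the list in replicate 2, and less evenly so in replicate 1. In the replicate 2 list the median score of the 9 peaks at stalk genes was 2749, against 571.3 for all its peaks, and all 9 were in the upper 50% of the list. In the replicate 1 list the median of 8 peaks was 2311, against 1772 for all its peaks, and 6 of the 8 were in the upper 50%; the peaks at AT4G00810 and AT5G47700 were not. Scores were compared only within a list. The best PePr interval was in the upper 50% of that list at each stalk gene except AT4G00810. Counting the upper 50% of each list alone, 7 stalk genes had a replicate 1 peak, against 13.1% of all genes, and 9 a replicate 2 peak, against 23.5%. The PePr list then had a peak at 9, against 46.9%, and the genomic list at 8, against 10.4%.

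**Figure D3:**
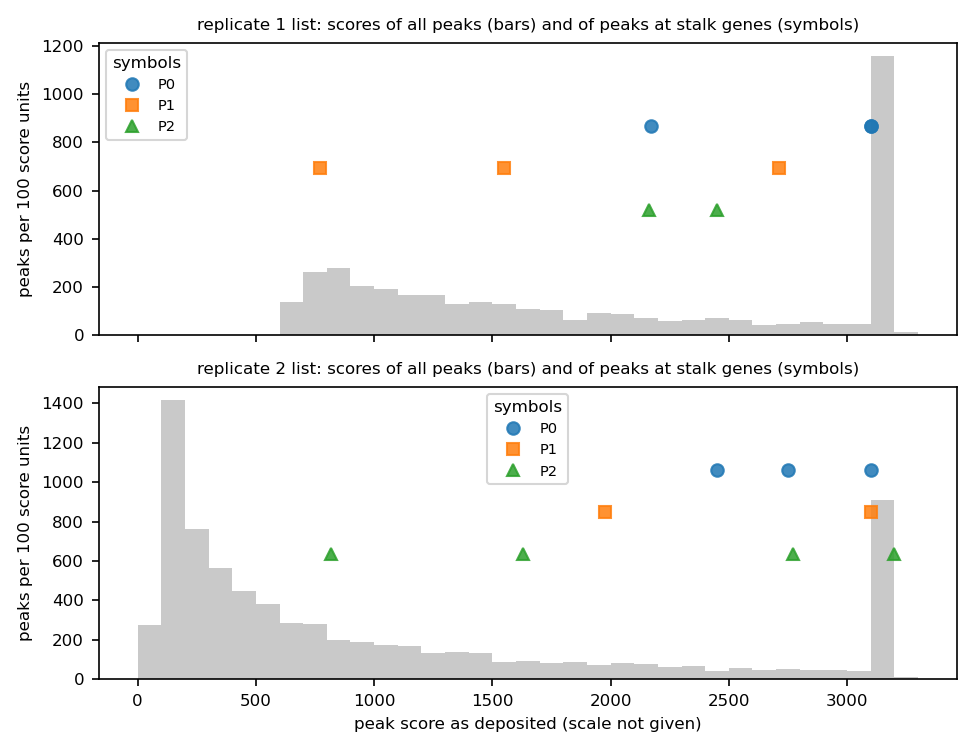
Number of peaks per 100 units of deposited score (grey bars, all peaks of the list) and the scores of the peaks at stalk genes (symbols by class, height arbitrary) for the replicate 1 list, above, and the replicate 2 list, below. In replicate 2 the lowest symbol is AT3G44590 at 819, above the list's median of 571.3; in replicate 1 the lowest is AT4G00810 at 769.6.

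Where both replicate lists had a peak, they mostly placed it at the same position. For the 7 replicate 1 peaks at stalk genes with an overlapping replicate 2 peak, the median distance between centres was 36.0 bp, against 57.0 bp over all 3583 such replicate 1 peaks. At 5 of the 7 it was at most 41.0 bp, and the other 2, at AT1G01100 and at the AT2G27710 and AT2G27720 pair, were the wide replicate 1 peaks of 3180 and 3411 bp. Widths at stalk genes ran from 1577 to 3411 bp in the replicate 1 list and from 1469 to 2204 bp in the replicate 2 list, with list medians of 2081 and 1728 bp. The replicate 1 count fell to 4 of the 10, against 7.53% of all genes, when at least 50% of a peak had to lie within the window.

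A list of 10 genes related to the stalk, whose classes are likewise those known for the families, was counted by the same rule. The genomic list had a peak at 5 of them, against 19.6% of all genes, and the replicate 1 list at 5, against 24.6%. In the replicate 2 list 9 had one, against 41.4% of all genes, and in the PePr list also 9, against 68.7%. The P3 genes split. AT4G25890 had a peak in all 4 lists, with its genomic list interval on chromosome 4 at 13160211 to 13161308. Its score was 1060 in replicate 1, at percentile 25.2 of that list, and 1073 in replicate 2, at percentile 65.8. AT5G57290 had a peak only in the replicate 2 list (score 2412) and the PePr list (p-value 4.3e-17). The P2-like gene AT5G40040 had a score of 3100 in both replicate lists, and its genomic list interval (chromosome 5, 16029471 to 16030660) covered the whole gene. The P0-like gene AT1G25260 had a peak in all 4 lists at low replicate 1 rank (percentile 7.92). The P1-like gene AT5G24510 had a peak in none of the 4 lists, with the nearest PePr peak 512 bp from its end, just outside the window.

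RPL12, the protein beside P0 at the base of the stalk, is encoded by 3 genes. AT2G37190 and AT5G60670 had a genomic list peak (chromosome 2, 15619374 to 15620620, and chromosome 5, 24380891 to 24382250), and AT5G60670 had a score of 3100 in both replicate lists. AT3G53430 had a score of 3100 in the replicate 2 list and no replicate 1 peak within 44259 bp. The eEF2 gene LOS1 (AT1G56070) and its relative AT3G12915, which encode the elongation factor named above or a close relative of it, had a peak in the replicate 2 list at scores of 769.7 and 182, with no replicate 1 or genomic list peak. In the PePr list the lowest p-value was 1.7e-18 at LOS1 and 5.2e-13 at AT3G12915.

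Some other cytosolic ribosomal proteins were counted by the same rule. They are only those whose symbol or synonym names a ribosomal protein, so genes without such a name were missed. Organellar ones were removed only where recognised, so some may remain. Of 38 such genes found by name in the gene table, 26 (68.4%, with an exact 95% interval from 51.3% to 82.5%) were reached by the genomic list, against 19.6% of all genes, and 27 (71.1%) by the replicate 1 list, against 24.6%. In the replicate 2 list 36 (94.7%) had a peak, against 41.4% of all genes, and in the PePr list also 36, against 68.7%. The intervals of the 10 stalk genes are too wide to compare the groups (44.4% to 97.5% in the genomic list), and the difference was not tested.

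**Figure D4:**
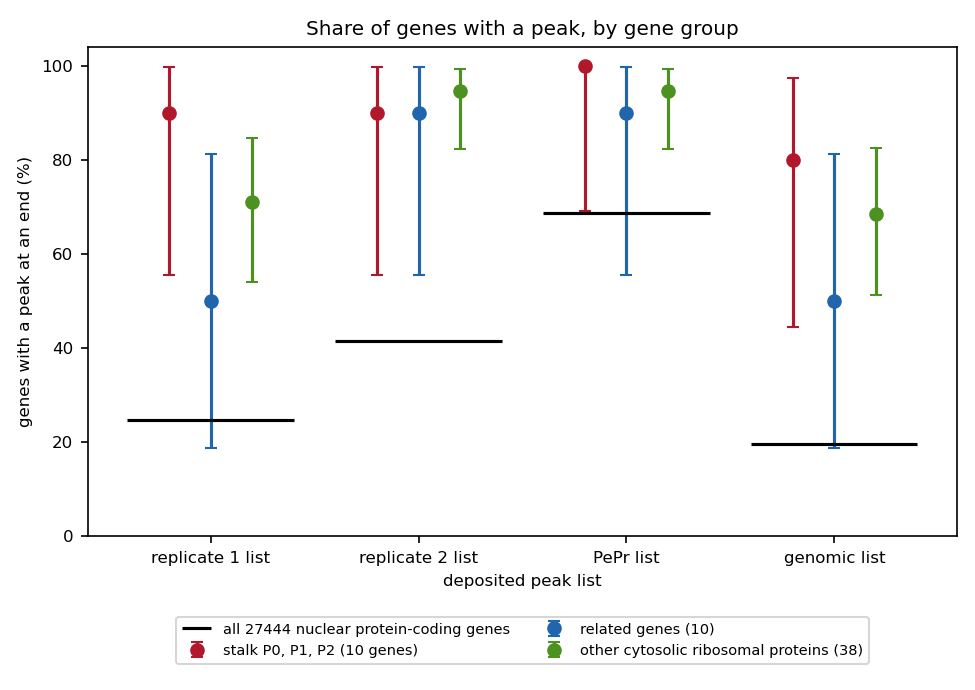
Percent of genes with a peak at an end in each list, by gene group. Points are the 10 stalk genes, the 10 related genes and 38 other cytosolic ribosomal protein genes found by name. Their exact 95% intervals cover counting error only, and black lines show all 27444 nuclear protein-coding genes. The stalk points lie at 9, 9, 10 and 8 of 10 genes, above the lines at 24.6%, 41.4%, 68.7% and 19.6%.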

How the data were processed

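The 4 peak lists the authors deposited were used as they stand. The submitters' processing notes name Bowtie2 2.2.2, SAMtools, bedtools and MACS, and the builds TAIR9 and TAIR10, without roles; PePr appears only in a list's name. No source used here gives thresholds, controls per call, pooling or the handling of reads that match several genes of a family. The replicate lists hold a deposited score per peak on an unstated scale, and the deposited PePr list gives each peak a p-value of at most 1.0e-05; its adjusted p-values and 2 columns of unstated meaning were left out. The genomic list gives positions without values.

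Positions are those of the lists with 1 added to each start, so that they count from 1. Genes came from the RefSeq table of TAIR10.1, without strand, which was used to place peaks; its coordinates are not printed. A peak counted from 1 bp of overlap with the window of 500 bp on either side of a gene end. Overlaps were computed with Python 3.11.15, pandas 2.3.3 and scipy 1.17.1, and the overlap code was tested on simulated data. Percentiles rank peaks within a list, with ties averaged.

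The members, the related genes and the rules were chosen with earlier results of these data known. The rule for named genes took all 10 stalk genes, the 10 related genes and neighbours reached by a stalk gene's peak, of which those needed to read a peak are given. The other ribosomal proteins were found by symbol or synonym, so the set is partial. Genes recognised by name or by hand as organellar, and disease resistance genes, were left out. Organellar genes not recognised in this way may remain in the set. Each group had 1 library, so no test over samples, enrichment test or shift of peaks was made. The planned counts of promoter motifs and the count at gene starts alone need sequence and strand and were not run.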

Additional observations from a re-analysis of the deposited data

How the results depend on the processing

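The counts of stalk genes with a peak were recomputed under 7 planned settings and 1 added after seeing the data, which counts AT2G27710 and AT2G27720 as 1 locus. In the genomic list the count was 7 or 8, while the share of all genes with a peak ran from 10.4% to 22.7%. In the replicate 2 list it ran from 7 to 9, with 18.6% to 46.0% of all genes, and in the PePr list it was 9 or 10, with 46.9% to 75.6%. Peaks that touch the gene itself were found at 9 stalk genes in replicate 1 (22.0% of all genes), 9 in replicate 2 (37.4%), 10 in PePr (61.0%) and 8 in the genomic list (17.2%). Peak centres within 500 bp of an end were found at 7 (13.1%), 9 (25.2%), 10 (59.0%) and 8 (15%), in the same order. It moved by more than 1.5 times in the replicate 1 list when at least 50% of the peak had to lie inside the window: 4 of 10 stalk genes then had a peak, against 7.53% of all genes. The 5 genes lost had replicate 1 peaks 2097 to 3411 bp wide, of which 50% cannot lie within 500 bp on either side of 1 end. With the 50% of peaks of higher rank the genomic list kept 8 of 10, against 10.4% of all genes, and the replicate 1 list 7 of 10, against 13.1%. No paired analysis was possible because each group had 1 library. Read depth is unknown, and its part in the missing peaks at AT4G00810 and AT3G44590 was not tested.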
